A study of Mus musculus with 16 samples.

Results

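The genes of intestinal retinoid metabolism were followed in the terminal ileum of mice with and without Tas1r3, which encodes a subunit of the sweet and umami taste receptors. They are 10 genes, Rdh7, Rbp2, Bco1, Isx, Lrat, Adh1, Aldh1a1, Aldh1a2, Dhrs3 and Stra6, of 23299 genes in the table, and a transcript was taken as one of theirs when its name without the last hyphenated part was the gene's symbol (20 transcripts). Rdh7 was chosen because it was lower in knockout than in wild-type libraries on both diets, so its values between genotypes are given as a description without a test. C57BL/6 wild-type mice (WT) and Tas1r3-/- mice (KO) of both sexes received a normal diet with plain water (ND) or a Western diet (WD), which paired a 60% high-fat chow with a 30% sugar solution, for 10 weeks. The mice were 5 to 6 weeks old when feeding began, and the knockout, the Tas1r3tm1Csz allele backcrossed to C57BL/6, is carried in every cell, not in the gut alone. WT controls were littermates.

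The 4 groups are called WT-ND, KO-ND, WT-WD and KO-WD, and each is labelled as 2 males (M1, M2) and 2 females (F1, F2). From the 16 labelled columns, 13 libraries were used. The female KO-ND columns equal weighted means of the male KO-ND columns at every transcript of the 10 genes, so they were left out and KO-ND holds 2 males. Doubling the second female KO-WD column and subtracting the first gave values of at most 6 digits for 99.9% of transcripts. The same sum in the WT-WD females did so for 80.8%. The female KO-WD columns were therefore averaged into 1 library, called the KO-WD female. If the second column is a mean of the first and another library, the first weighs more in this average. KO-WD therefore holds 3 libraries, and KO-ND has no female library, so on the ND the genotypes can be compared within a sex only in males. Tas1r3 itself was at 1.80 to 6.27 RPKM (reads per kilobase of transcript, scaled to the library's read total) in the 8 WT libraries and at no more than 0.00452 in the 5 KO libraries, which matches the labels. The ileal bile acid genes Fabp6, Slc10a2, Slc51a and Slc51b were present in all 13 libraries, and Fabp6 ranged from 737 to 8847 scaled RPKM. The library totals behind the RPKM correspond to 7204403 to 14460683 reads where the steps of the values could be read, and 1 read on a 1 kb transcript is worth 0.0692 to 0.139 RPKM. Summed over all transcripts, RPKM came to 817011 to 819917 in the ND libraries and to 542371 to 672933 in the WD libraries, so diet cannot be told apart from whatever made these totals differ. Scaled RPKM, used from here on unless RPKM is named, is the gene's RPKM divided by a library factor from a trimmed mean of log ratios.

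Vitamin A reaches the enterocyte as retinol from retinyl esters and as provitamin A carotenoids. BCO1 cleaves carotenoids to retinal, RBP2 carries retinol and retinal inside the cell, and LRAT esterifies retinol for export in chylomicrons. Retinol is oxidised to retinal by short-chain dehydrogenases such as RDH7 and by alcohol dehydrogenases such as ADH1, ALDH1A1 and ALDH1A2 make retinoic acid, and DHRS3 returns retinal to retinol. Retinoic acid induces the transcription factor ISX, which represses Bco1 and thereby closes a feedback loop on vitamin A uptake. STRA6 is a cell-surface receptor for retinol bound to its plasma carrier.

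All 10 genes passed the filter on low values (at least 1 RPKM in at least 2 libraries). Rbp2 was the most abundant, with a mean over the libraries of 140.1 RPKM, followed by Isx with 60.8 RPKM and Aldh1a1 with 58.2 RPKM. Dhrs3 had a mean of 22.6 RPKM, Adh1 of 12.6 RPKM and Rdh7 of 8.34 RPKM. Bco1 (4.35 RPKM), Aldh1a2 (3.15 RPKM), Lrat (2.92 RPKM) and Stra6 (0.865 RPKM) were the lowest. The order of neighbours is loose, since Isx ranged from 18.1 to 115 RPKM and Aldh1a1 from 28.4 to 98.8 RPKM. The spread across libraries was uneven. In scaled RPKM the highest library exceeded the lowest 19.5 times for Stra6, 17.5 times for Rbp2, 16.5 times for Rdh7 and 8.52 times for Bco1. It did so 2.30 times for Adh1 and 2.92 times for Lrat. Stra6 was close to the detection limit, with 0.118 RPKM in WT-ND male 1 and 2.68 RPKM in WT-ND female 1.

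**Figure D1:**
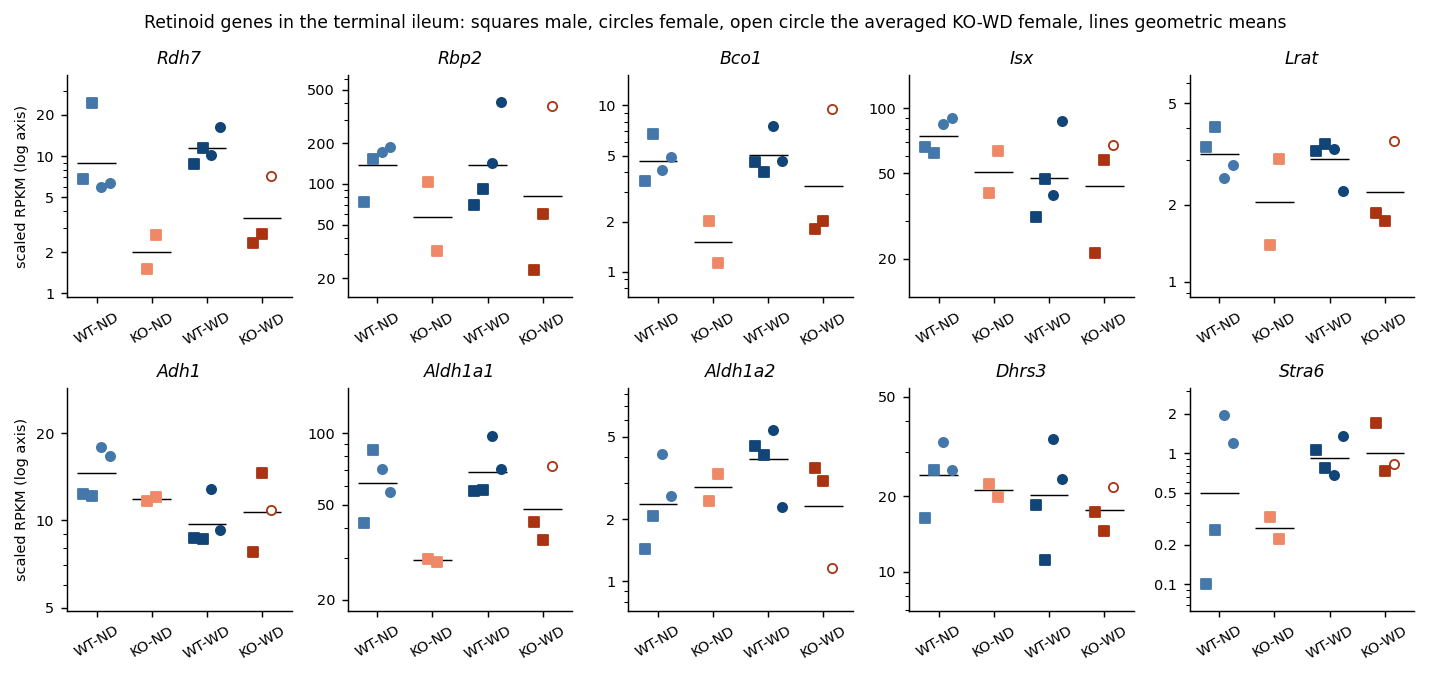
Scaled RPKM of the 10 genes on log axes, 1 point per library, by group (squares male, filled circles female, open circle the averaged KO-WD female, lines the geometric mean). The 4 KO males are the lowest 4 points for Rdh7 and Bco1, at up to 2.70 and 2.03, while the KO-WD female lies near the WT points at 7.23 and 9.58.

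Rdh7 encodes a retinol dehydrogenase and was selected on its difference between genotypes. Its scaled RPKM was 6.86, 24.7, 5.96 and 6.37 in WT-ND and 1.49 and 2.66 in KO-ND. In WT-WD it was 8.74, 11.6, 10.3 and 16.2, and in KO-WD it was 2.31 and 2.70 in the males and 7.23 in the female. Every KO library lay below every WT library of its diet, but the KO-WD female was above 3 of the 4 WT-ND libraries. The log2 difference was -1.92 ± 0.54 (SE) on the ND and -1.53 ± 0.48 on the WD. The single transcript of the gene rested on 29 to 345 reads per library. The low values came from male KO libraries, and the only KO female value is an average. Its first column alone gave 4.53 RPKM, and the library implied by doubling the second column and subtracting the first gave 9.24 RPKM, inside the WT-WD range of 8.23 to 11.8 RPKM. With the first column and that implied library as separate KO-WD females, in place of the averaged library, the WD difference was -1.22.

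Rdh7 lies on chromosome 10 (GRCm38, 127884028-127888817, minus strand) beside a row of close relatives, and 13.2% of the 1629 stretches of 50 bases in its transcript also occur in transcripts of other genes, most of all the pseudogene Rdh18-ps. Reads from the shared stretches could have been counted to either gene. Of these relatives Rdh9 was the most abundant, with 17.3, 20.8, 23.5 and 33.6 in WT-ND and 13.1 and 5.83 in KO-ND. On the WD Rdh9 was 18.4, 14.8, 16.6 and 48.8 in WT and 3.53, 12.3 and 42.9 in KO, the last being the female. Rdh16 was 5.10, 9.05, 7.83 and 6.00 in WT-ND against 3.23 and 1.21 in KO-ND, and on the WD 2.97 to 8.87 in WT against 0.681, 3.33 and 14.3 in KO. The same order thus held for both on the ND, whereas on the WD the KO female had the highest Rdh16 of all libraries. Rdh1, Rdh16f1, Rdh16f2, Rdh18-ps and Rdh19 each had a mean of less than 1.5 RPKM, and Rdh19 did not pass the filter. On the ND the log2 difference between genotypes was -1.35 ± 0.74 for Rdh9 and -1.54 ± 0.75 for Rdh16, both with an adjusted p of 0.891 (limma).

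**Figure D2:**
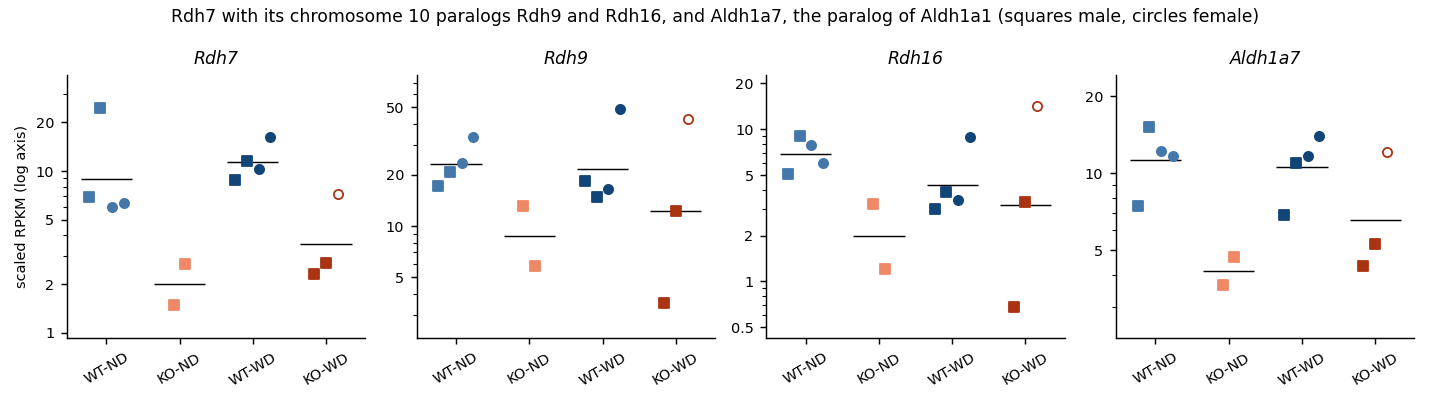
Scaled RPKM on log axes of Rdh7, its chromosome 10 relatives Rdh9 and Rdh16, and Aldh1a7, by group (squares male, circles female, open circle the averaged KO-WD female, lines geometric means). Rdh9 is at 3.53 to 13.1 and Aldh1a7 at 3.64 to 5.29 in the KO males, and both are higher in the KO-WD female, at 42.9 and 12.2.

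Among the other genes, Bco1 and Aldh1a1 followed the layout of Rdh7 most closely. Bco1, the carotenoid cleavage enzyme, was at 3.50, 6.75, 4.08 and 4.93 in WT-ND and at 2.03 and 1.12 in KO-ND. On the WD it was 4.54, 4.002, 7.52 and 4.67 in WT, 1.80 and 2.01 in the KO males and 9.58 in the KO female. Both KO-ND libraries were thus below all WT-ND libraries, and on the WD the highest and the lowest values were both KO. Aldh1a1, a retinoic acid synthesising dehydrogenase, was at 41.8, 85.4, 70.9 and 56.7 in WT-ND and at 29.7 and 28.7 in KO-ND. On the WD it was 56.9, 57.9, 96.9 and 70.7 in WT, 42.3 and 35.6 in the KO males and 72.9 in the KO female. The groups were separate on the ND and overlapped on the WD only through that female. Over the 13 libraries Pearson's r of the log2 values was 0.904 between Bco1 and Aldh1a1. It was 0.834 between Rdh7 and Aldh1a1 and 0.771 between Rdh7 and Bco1. All points share their library's cell makeup and scaling, and group means were not removed. Rdh7 was chosen as lower in KO, so its r with other genes low in KO comes partly from that choice.

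Stretches of 150 bases just upstream of the transcription start are shown for Rdh7, Bco1 and Aldh1a1, whose levels moved together, and for Rbp2, the gene with the widest range among the abundant ones. They come from RefSeq promoter entries on GRCm38.p6, end at the more upstream of the RefSeq and Ensembl starts and hold no exon of the gene. Capitals mark the nuclear receptor half-site AGGTCA on either strand, TGACCT being its reverse complement.
Rdh7, chr10:127888818-127888967, minus strand: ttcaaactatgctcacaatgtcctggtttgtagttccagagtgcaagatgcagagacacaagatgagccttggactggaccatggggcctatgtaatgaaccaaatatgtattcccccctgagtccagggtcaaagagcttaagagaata
Bco1, chr8:117095704-117095853, plus strand: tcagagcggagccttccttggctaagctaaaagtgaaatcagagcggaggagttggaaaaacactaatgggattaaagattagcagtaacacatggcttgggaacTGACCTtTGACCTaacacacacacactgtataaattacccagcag
Aldh1a1, chr19:20601811-20601960, plus strand: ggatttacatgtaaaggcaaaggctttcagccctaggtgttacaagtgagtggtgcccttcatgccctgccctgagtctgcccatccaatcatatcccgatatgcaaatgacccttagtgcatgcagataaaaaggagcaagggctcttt
Rbp2, chr9:98490387-98490536, plus strand: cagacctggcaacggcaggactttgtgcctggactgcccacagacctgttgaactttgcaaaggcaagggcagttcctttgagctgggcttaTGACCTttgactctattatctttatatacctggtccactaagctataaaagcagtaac
The Bco1 stretch holds a pair of half-sites spaced by 1 base, the arrangement called DR1 (AGGTCANAGGTCA), and Rbp2 holds 1 half-site. All 10 genes had an entry, and taking the entry nearest to the start of each gene's main transcript, 2 of 10 held a half-site, against 16.3% of all 32851 entries of 300 bases. A half-site also occurs in a second, more distant Rdh7 entry. The exact DR1 occurs in 13 of the 32851 entries (0.0396%), one of which is that of Bco1. Entries include several per gene, and a match of letters is a description, not a binding site or a cause.

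On the ND, 0 of the 9 genes other than Rdh7 differed between KO and WT at an adjusted p below 0.01 and a fold of at least 2 (limma), where 0% of the 19042 genes tested did. Aldh1a1 (log2 difference -1.06 ± 0.33, adjusted p = 0.891) and Bco1 (-1.35 ± 0.51, adjusted p = 0.891) were the 2 of 9 with an unadjusted p below 0.05, against 4.83% of all genes. Their 95% intervals ran from -1.79 to -0.34 for Aldh1a1 and from -2.46 to -0.24 for Bco1. For 3 of 9, Bco1, Aldh1a1 and Adh1, both KO-ND libraries lay below all WT-ND libraries. Of all genes, 22.4% had groups without overlap, counted in either direction. The Adh1 order was that of the summed transcripts. Its protein-coding transcript did not follow it, at 5.05 and 9.32 RPKM in KO-ND against 1.72 to 7.52 RPKM in WT-ND. With 2 libraries against 4 the exact permutation test cannot go below p = 0.0667, the value of Bco1 and Aldh1a1 (adjusted p = 0.724 over 38 permutation tests). Of the 9 genes 8 were lower in KO-ND, with a median log2 difference of -0.56, where 48.5% of all genes were lower and their median was 0.016. KO-ND holds males only and WT-ND both sexes, so this count cannot tell genotype from sex. Within males alone the difference was -1.40 for Bco1 and -1.01 for Aldh1a1, and for Rdh7 -2.44. It was -0.88 for Rbp2, -0.70 for Lrat and -0.33 for Isx in males. For Adh1, Dhrs3 and Aldh1a2 it was -0.035, 0.053 and 0.60, and Stra6 was not fitted in males alone.

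Rbp2, the carrier of retinol and retinal, was 73.4, 154, 172 and 188 in WT-ND and 104 and 31.7 in KO-ND. The log2 difference of -1.26 had an SE of 0.95 and an interval from -3.32 to 0.80, so that neither a large decrease nor an increase is outside it. Without KO-ND male 1 it was -2.10, and without KO-ND male 2 it was -0.42. Lrat, the esterifying enzyme, was 3.37, 4.06, 2.55 and 2.87 in WT-ND and 1.39 and 3.03 in KO-ND (-0.51 ± 0.33, adjusted p = 0.891). Isx was 66.2, 62.0, 84.3 and 89.7 in WT-ND and 40.3 and 63.5 in KO-ND (-0.56 ± 0.46, adjusted p = 0.892), so the higher KO library was within the WT range. Adh1 had narrow groups, 12.3, 12.1, 17.9 and 16.7 in WT-ND against 11.7 and 12.04 in KO-ND, and its difference was -0.29 ± 0.26. The WT males were close to the KO males, and the higher WT values were those of the females. Aldh1a2, Dhrs3 and Stra6 differed by 0.21, -0.20 and -0.60 on the log2 scale, with SE of 0.43, 0.37 and 0.50. Dhrs3 lies on chromosome 4 at 10931059 bp from Tas1r3, on the chromosome that carries the deletion.

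On the WD, 0 of 9 genes other than Rdh7 were called between KO and WT (limma), against 0.0105% of all genes, and 0 of 9 had an unadjusted p below 0.05, against 2.62%. No gene but Rdh7 had groups without overlap (0 of 9, against 2.88% of all genes). The largest tested differences were -0.77 ± 0.84 for Rbp2, -0.62 ± 0.38 for Aldh1a2, -0.52 ± 0.29 for Aldh1a1 and -0.52 ± 0.45 for Bco1, and all 9 had an adjusted p of 1 (limma). Of the 9 genes 7 were lower in KO-WD, with a median of -0.35, where 55.6% of all genes were lower and their median was -0.035. The Bco1 difference was -1.17 without the KO-WD female and -0.091 without KO-WD male 1. Rbp2 ranged widely in both groups, with 23.1, 60.2 and 381 in KO-WD and 69.7, 92.3, 144 and 405 in WT-WD. Aldh1a2, the dehydrogenase of stromal and dendritic cells, went the other way from Bco1 in the female, with 3.52 and 3.04 in the KO-WD males and 1.16 in the KO-WD female against 4.53, 4.10, 5.38 and 2.28 in WT-WD. Lrat was 1.86, 1.72 and 3.57 in KO-WD and 3.25, 3.48, 3.31 and 2.26 in WT-WD (-0.35 ± 0.29). Isx (-0.13 ± 0.40), Adh1 (0.14 ± 0.23), Dhrs3 (-0.19 ± 0.33) and Stra6 (0.091 ± 0.45) differed by less than their SE.

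**Figure D3:**
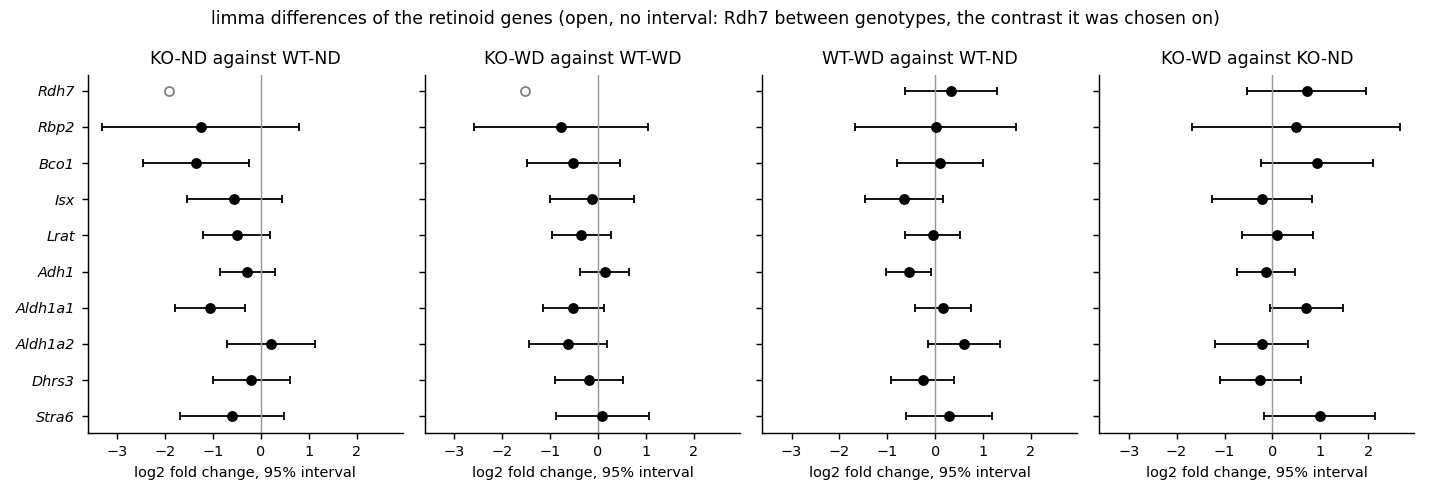
Log2 fold changes of the 10 genes in the 4 comparisons of groups with 95% intervals from limma (filled points). Rdh7 between genotypes is an open point with no interval because it was chosen on that contrast. All intervals but those of Bco1 and Aldh1a1 in KO-ND against WT-ND and of Adh1 in WT-WD against WT-ND include 0.

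KO-ND holds no female library and KO-WD 1 averaged female, so whether the genotype difference depends on sex could not be tested. The 4 KO males were set against the 4 WT males over both diets. That contrast was chosen after the values had been seen. Bco1 was at 1.12 to 2.03 in KO males and at 3.50 to 6.75 in WT males, and Lrat at 1.39 to 3.03 against 3.25 to 4.06. Those are the 2 of 9 genes other than Rdh7 with every KO male below every WT male, against 3.95% of all genes. For Aldh1a1, the KO males reached 42.3 and the lowest WT male was 41.8. Rdh7 was at 1.49 to 2.70 against 6.86 to 24.7, with a log2 difference of -2.13. In a fit of the males alone, in which Stra6 did not pass the filter, 0 of 8 genes were called (limma), as were 0% of 18460 genes. The 3 of 8 with an unadjusted p below 0.05 were Bco1 (-1.20 ± 0.26, adjusted p = 0.178), Aldh1a1 (-0.78 ± 0.22, adjusted p = 0.204) and Lrat (-0.72 ± 0.24, adjusted p = 0.243), against 15.5% of all genes. Aldh1a7, the paralog of Aldh1a1, was at 3.64 to 5.29 in KO males and 6.87 to 15.2 in WT males (-1.03 ± 0.26, adjusted p = 0.193), and 7.53% of the 50-base stretches of the main Aldh1a1 transcript also occur in Aldh1a7.

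The sum of a set of enterocyte markers moved with several of these values. The summed level of 8 enterocyte markers (Alpi, Vil1, Fabp2, Apoa1, Apoa4, Sis, Slc5a1 and Anpep, all 8 measured) was 7355 to 11670 in WT-ND, 2686 to 5450 in KO-ND, 5456 to 16740 in WT-WD and 1168 to 14100 in KO-WD. The 4 KO males, at 1168 to 5450, were all below the 4 WT males, at 5456 to 11670. The gap was narrow, since KO-ND male 1 was at 5450 and WT-WD male 1 at 5456. Within the list, Alpi, Fabp2 and Apoa1 were lower in every KO male than in every WT male. Vil1, Apoa4, Sis, Slc5a1 and Anpep overlapped, with Anpep at 250 to 2565 in KO males and 959 to 3236 in WT males. The sum weighs abundant markers most, so it does not speak for the list as a whole. By the sum, the KO-WD female was second only to WT-WD female 2. Rbp2 followed that order closely. It was lowest in KO-WD male 1, which had the lowest marker sum, and highest in WT-WD female 2, which had the highest. The summed 4 ileal bile acid genes, a second enterocyte list, did not separate the males. They were at 916 to 5244 in KO males and 1857 to 3912 in WT males. In KO-WD male 1 the sum of 6 smooth muscle markers was the highest of all libraries, at 5324 against 1026 to 4188 in the others. In bulk tissue fewer cells of a type and less RNA per cell cannot be told apart. With the marker sum as a covariate, an alternative added after the data were seen, the ND difference of Rbp2 went from -1.26 to 0.31, of Bco1 from -1.35 to -0.67 and of Aldh1a1 from -1.06 to -0.76. On the WD Bco1 went from -0.52 to 0.058 and Aldh1a1 from -0.52 to -0.27. The Rdh7 difference was -1.41 on the ND and -1.10 on the WD in that fit. Among males over both diets, the difference with that covariate was -1.85 for Rdh7, -0.73 for Bco1, -0.68 for Aldh1a1 and -1.03 for Lrat. The last 3 each had an adjusted p of 0.857 (limma). The sum did not overlap between KO and WT males, nor between KO-ND and WT-ND. In those comparisons the covariate therefore cannot separate the marker sum from genotype. Paneth cell markers were at 5792 to 10950 in the KO males and 3820 to 8158 in the WT males, and their part in the differences was not tested.

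**Figure D4:**
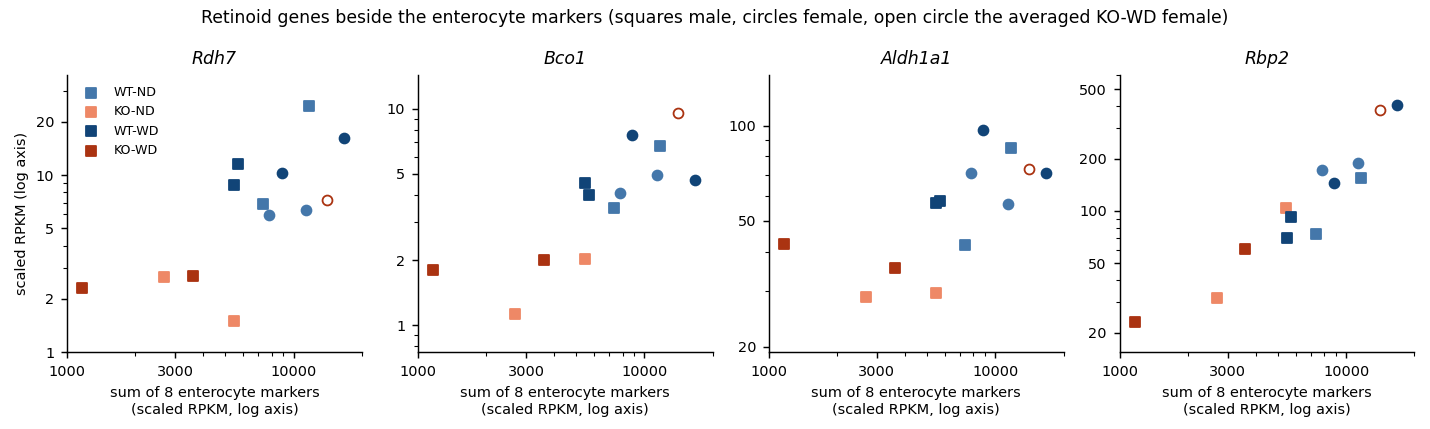
Scaled RPKM of Rdh7, Bco1, Aldh1a1 and Rbp2 (y, log axes) against the summed scaled RPKM of 8 enterocyte markers (x, log axes), 1 point per library (squares male, circles female, open circle the averaged KO-WD female). Rbp2 rises with the marker sum from 23.1 to 405 across the libraries, and the 4 KO males lie at the left of each panel.

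Between diets in WT mice, 0 of 10 genes were called (limma), against 0.00525% of all genes, and 1 of 10, Adh1, had an unadjusted p below 0.05, against 15.6%. Adh1, a cytosolic alcohol dehydrogenase that oxidises retinol, was 12.3, 12.1, 17.9 and 16.7 in WT-ND and 8.72, 8.62, 12.8 and 9.28 in WT-WD (-0.56 ± 0.22, adjusted p = 0.249, interval -1.02 to -0.089). Only WT-WD female 1 reached the WT-ND range. Isx, the retinoic acid induced repressor, was 66.2, 62.0, 84.3 and 89.7 in WT-ND and 31.3, 47.0, 39.5 and 87.2 in WT-WD (-0.65 ± 0.37, adjusted p = 0.421), where 3 of 4 WT-WD libraries were below all WT-ND libraries. Bco1, the gene that ISX represses, had a difference of 0.097 ± 0.42 with an interval from -0.81 to 1.00. Aldh1a2 was 1.44, 2.07, 4.11 and 2.57 in WT-ND and 4.53, 4.10, 5.38 and 2.28 in WT-WD (0.61 ± 0.35, adjusted p = 0.419). No gene had groups without overlap (0 of 10, against 10.6%). Without scaling, where the median of all genes was -0.38 and not 0.032, Adh1 was at -1.01 (adjusted p = 0.020) and Isx at -1.12 (adjusted p = 0.044), neither past 0.01.

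Among the transcripts of Adh1, the one annotated as a retained intron was at 3.45, 3.16, 3.25 and 3.93 RPKM in WT-ND, and at 0.378 to 1.17 RPKM in the 9 other libraries, KO-ND included. The transcript annotated for nonsense-mediated decay carried 58.6% of the gene's RPKM and the protein-coding one 28.2%. The protein-coding one overlapped between diets in WT mice, at 1.72 to 7.52 RPKM in WT-ND and 0.921 to 4.22 RPKM in WT-WD. The one for nonsense-mediated decay did not, at 8.26 to 14.1 RPKM in WT-ND and 2.83 to 8.10 RPKM in WT-WD. These transcript values were chosen after they had been seen and were not tested. The retained-intron values rest on at most 35 reads.

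Between diets in KO mice, 0 of 10 genes were called (limma), against 0% of all genes, and 0 of 10 had an unadjusted p below 0.05, against 5.65%. For 2 of 10, Aldh1a1 and Stra6, all 3 KO-WD libraries were above both KO-ND libraries. Of all genes, 20.9% were without overlap, counted in either direction. Aldh1a1 was 29.7 and 28.7 in KO-ND and 42.3, 35.6 and 72.9 in KO-WD (0.70 ± 0.35, adjusted p = 0.882). Stra6, the receptor for plasma retinol, was 0.328 and 0.222 in KO-ND and 1.69, 0.737 and 0.825 in KO-WD (0.99 ± 0.53, adjusted p = 0.905), and it was as low in WT-ND males, at 0.101 and 0.260, as in KO-ND males. Bco1 had a difference of 0.93 ± 0.54 that fell to 0.24 in males alone, since its high value came from the KO-WD female. Rdh7 had a difference of 0.71 ± 0.57 (adjusted p = 0.970) in KO and of 0.32 ± 0.44 (adjusted p = 0.757) in WT mice. The effect of genotype was not shown to depend on diet for any of the 9 genes tested (0 of 9 called against 0% of all genes, and 0 of 9 with an unadjusted p below 0.05 against 1.43%). The interaction ranged from -0.83 ± 0.57 for Aldh1a2 to 0.84 ± 0.68 for Bco1 on the log2 scale.

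The wider retinoid pathway was described by a list of 55 further genes, of which 48 were in the table and 43 were tested. In none of the 4 comparisons or the interaction was one of the 43 called. At an unadjusted p below 0.05 there were 5 of 43 in WT mice between diets (Itga4 higher on the WD, and Lipe, Rxrb, Cdx1 and Tgm2 lower), 1 in KO mice between diets (Rxrb, lower on the WD), 1 lower in KO-ND (Aldh1a7), 1 lower in KO-WD (Ttr) and 0 in the interaction, and those outside the naming rule are named after their values were seen. The shares of all genes at that p were 15.6%, 5.65%, 4.83%, 2.62% and 1.43% in the same order. In KO-ND, the groups did not overlap for 10 of the 43, a share near the 22.4% of all genes. All 10 were lower than in WT-ND, Aldh1a7, Rdh16 and Rdh9 by the most, but the direction was not counted over all genes without overlap. The 10 include the chromosome 10 neighbours Rdh1, Rdh9, Rdh16 and Rdh18-ps. Aldh1a7 was 3.64 and 4.71 in KO-ND and 7.46 to 15.2 in WT-ND (-1.35 ± 0.39, adjusted p = 0.891). Between diets in WT mice the genes without overlap were the retinoic acid receptor Rara (12.5 to 17.0 on the ND and 8.75 to 12.2 on the WD), its partner Rxra (37.6 to 45.5 and 27.5 to 33.3) and the integrin subunit Itga4 (0.718 to 1.19 and 1.51 to 2.17). Their log2 differences were -0.50 ± 0.23, -0.42 ± 0.21 and 0.60 ± 0.24, with adjusted p of 0.328, 0.349 and 0.255. Between diets in KO mice Rxrb was 39.7 to 44.3 on the ND and 23.6 to 31.1 on the WD (-0.62 ± 0.23, adjusted p = 0.845). Rdh1 (0.62 ± 0.36) and Rdh14 (0.48 ± 0.27) were higher there, both with an adjusted p of 0.912. The median log2 difference of the 43 genes was -0.094 in KO-ND, -0.10 in KO-WD, -0.087 in WT-WD against WT-ND and -0.037 in KO-WD against KO-ND, where that of all genes was 0.016, -0.035, 0.032 and -0.0062.

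The pattern of Rdh7 over the 13 libraries was most like that of Bag4 (r = 0.906), 4732465J04Rik (r = 0.905), Nudt4 (r = 0.904), Ubxn2a (r = 0.894) and Aldh1a7 (r = 0.888) among all genes tested. Aldh1a1 ranked 41, Bco1 171 and Lrat 294 in that order, and Isx, at r = 0.331, ranked 4354. Since Rdh7 was chosen as lower in KO, genes low in KO libraries rank high here partly through that choice. The genes most like Isx were Exph5 (r = 0.955), Gm10108 (r = 0.943), Gm14866 (r = 0.928), Pgpep1 (r = 0.927) and H2-Q2 (r = 0.926). Of the 10 genes, Adh1 (r = 0.635) and Rbp2 (r = 0.632) were the most like Isx, and Bco1 had an r of 0.269 with it.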

How the data were processed

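The authors made Ion Proton libraries from terminal ileum RNA, mapped the reads to mm10 in Partek Flow with STAR and quantified them on Ensembl transcripts, and the deposited values are RPKM per transcript. The authors name DESeq2 for their own tests, which was not used here because the values are not counts. The RPKM of a gene is the sum over its transcripts. A pseudocount of 0.5 was added before log2. Scaling trimmed 30% of the log ratios and 5% of the levels at each end. Genes with at least 1 RPKM in at least 2 of the 13 libraries (19042) went into a single limma model (version 3.58.1, R 4.3.3) of the 4 groups whose prior variance followed expression level. Calls needed a Benjamini-Hochberg adjusted p below 0.01 and a fold of at least 2, and folds are on the log2(value + pseudocount) scale. Single genes were also compared by two-sided exact permutation tests of log2 values. The fit was also run on simulated data with known differences, and the outcome is not given here.

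The members and lists were chosen with earlier results of these data known. All 10 genes were named in every comparison, and from the wider list the 3 genes of largest difference among those without overlap in each comparison, the chromosome 10 relatives of Rdh7 with their levels, and the 5 genes most like Rdh7 and Isx by Pearson's r. Lengths, positions and transcript types came from GENCODE M21 (98.2% of transcripts matched). Reads per library were estimated from steps in the values of genes with 1 transcript (tolerance 0.02 reads, 86.5% to 87.8% of values whole), so the depth behind a value is an estimate, and errors are between libraries. Labels give separate samples with a sex and a number, without naming the animal, so p-values measure the spread between these samples. Alternatives changed the scaling, filter, pseudocount, covariates, libraries and columns used. One marker gene is not reported here and was left out of the enterocyte sum.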

Additional observations from a re-analysis of the deposited data

Results flagged for a closer look

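In the groups of 4 libraries the highest and the lowest value were compared with the rest by Dixon's ratio, for 10 genes in 2 groups (20 sets, of which chance marks about 1 in 20). Rdh7 in WT-ND male 2 was 24.7, and the next value was 6.86, so that the gap took up 0.952 of the group's range. Without that library the ND difference of Rdh7 between genotypes was -1.45, and its WT difference between diets was 0.79. Adh1 in WT-WD female 1 was 12.8 and the next value 9.28, a gap of 0.844 of the range. Without that library the WT difference of Adh1 between diets was -0.69.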

How the results depend on the processing

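None of the genes tested passed the call in any comparison under the alternatives run (154 of 154 counts stayed at 0; Rdh7 was tested only between diets), and of 1481 log2 differences under alternatives 1394 kept their direction and 87 did not. The cause of the changes in direction was not tested, and they concern uncalled differences.

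Without scaling, the WT diet difference became -0.13 for Rdh7, -0.47 for Rbp2, -0.33 for Bco1, -0.31 for Aldh1a1 and -0.0065 for Stra6, and the KO diet difference of Lrat -0.23. Upper quartile scaling gave an interaction of -0.0008 for Dhrs3.

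In males alone, the WT diet differences were -0.36 (Rdh7), -0.40 (Rbp2), -0.17 (Bco1) and -0.056 (Aldh1a1), and the KO diet differences -0.62 (Rbp2), -0.17 (Lrat) and 0.17 (Aldh1a2). Dhrs3 between genotypes was 0.053 on the ND and 0.14 on the WD, the interactions of Rbp2 and Lrat were -0.21 and -0.057, and over both diets Adh1, Aldh1a2 and Dhrs3 were at 0.13, 0.12 and 0.094.

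Of the 14 pairs of same-numbered libraries 7 had deviations correlated at r over 0.1, the others not (r from -0.15 to 0.57). The WT-WD and KO-WD males had r of 0.57 (M1) and 0.42 (M2). Pairs with different numbers ran from -0.63 to 0.63. These values cannot decide whether the numbers mark pairs. The labels do not say so, and the numbers were taken only as names. With the replicate block 0 genes were called, and the values that changed direction were Rbp2 between KO diets (-0.042), Dhrs3 on the ND (0.10), Isx on the WD (0.061) and the interactions of Rbp2 (-0.052) and Dhrs3 (-0.25). With sex as a covariate they were Rbp2 between KO diets (-0.072), Dhrs3 on the ND (0.12) and the interactions of Rbp2 (-0.082) and Dhrs3 (-0.21).

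The next alternatives were chosen after seeing the data. With the enterocyte marker sum as a covariate, the ND genotype difference was 0.31 for Rbp2, -0.26 for Aldh1a2 and 0.031 for Dhrs3. That on the WD was 0.54 for Rbp2, 0.058 for Bco1, 0.32 for Isx and 0.0041 for Dhrs3, and the interaction of Dhrs3 was -0.0265. In males alone with that covariate, Rbp2, Isx, Adh1 and Dhrs3 over both diets were at 0.55, 0.29, 0.56 and 0.14. Isx on the WD was 0.064 with the first KO-WD female column and the implied one as separate libraries, and it was 0.028 with all 16 columns as labelled.

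Leaving out 1 library at a time, the WT diet difference ran from -0.54 to 0.34 for Rbp2, -0.084 to 0.26 for Bco1, -0.14 to 0.05 for Lrat, -0.022 to 0.32 for Aldh1a1, -0.51 to 0.0089 for Dhrs3 and -0.032 to 0.64 for Stra6. The KO diet difference ran from -0.60 to 1.43 for Rbp2, -0.53 to 0.32 for Isx, -0.34 to 0.55 for Lrat, -0.32 to 0.11 for Adh1 and -0.45 to 0.19 for Aldh1a2. The genotype difference on the WD ran from -1.84 to 0.18 for Rbp2, -0.40 to 0.44 for Isx, -0.028 to 0.41 for Adh1, -0.47 to 0.054 for Dhrs3 and -0.13 to 0.28 for Stra6. The interaction ran from -0.081 to 0.72 for Rdh7, -0.58 to 1.44 for Rbp2, -0.26 to 0.61 for Lrat and -0.27 to 0.25 for Dhrs3. Where KO-ND lost a library, the lone one was assumed to vary like the other groups. Stra6 and the lowest Bco1 values rest on few reads, which limits their precision.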
